A study of Homo sapiens with 12 samples.

Results

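Expression of 10 genes that encode proteoglycans of the extracellular matrix and associated matrix proteins was followed in 2 rhabdomyosarcoma cell lines after knockdown of KDM3A, a histone demethylase that removes methyl groups from lysine 9 of histone H3. The genes were VCAN, HAPLN1, ACAN, BGN, DCN, LUM, FMOD, GPC3, TNC and MGP, found by their names in a table of 65975 gene identifiers, where each name matched 1 identifier. VCAN, TNC and MGP were selected on their changes in Rh30 cells, so their values in any comparison that uses Rh30 libraries are a description with no test. The other 7 genes joined the set by what they encode, but the set was drawn up with earlier results of these data known. RNA carrying poly(A) was sequenced from RD cells, a fusion-negative (FN-RMS) line grown in DMEM, and from Rh30 cells (SJRH30), a fusion-positive (FP-RMS) line grown in RPMI. Cells of all groups had received lentivirus and puromycin: the control groups carried a scrambled shRNA (Scramble) and the knockdown groups carried 1 shRNA against KDM3A (KDM3A-sh2). Each of the 4 groups had 3 libraries. Each tumor subtype was represented by 1 line, so line, medium and subtype cannot be told apart, and with 1 shRNA the loss of KDM3A and other effects of that shRNA cannot be told apart.

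Proteoglycans are core proteins that carry long sulfated sugar chains (glycosaminoglycans). The large aggregating proteoglycans versican (VCAN) and aggrecan (ACAN) bind hyaluronan, and the link protein HAPLN1 stabilizes that bond, which gives cartilage and embryonic mesenchyme their hydrated matrix. The small leucine-rich proteoglycans biglycan (BGN), decorin (DCN), lumican (LUM) and fibromodulin (FMOD) bind fibrillar collagens and regulate how fibrils assemble. Glypican 3 (GPC3) is tethered to the outer face of the cell membrane and carries heparan sulfate chains that bind growth factors. Tenascin C (TNC) is a large matricellular glycoprotein of embryonic tissue, tendon and tumor stroma that modulates cell attachment to fibronectin, and matrix Gla protein (MGP) is a small secreted protein that inhibits calcification after vitamin K-dependent carboxylation.

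Expression was given as FPKM (fragments per kilobase of transcript scaled to the mapped fragments), which corrects for gene length and library size. Summed FPKM per library ran from 1198300 to 1379200, and 17473 to 17983 genes had at least 1 FPKM in a library. The number of reads cannot be read from FPKM, but the step between the lowest values gives relative depth (1 at the median over libraries), which was 1.05 to 1.202 in RD Scramble, 0.866 to 1.002 in RD KDM3A-sh2 and between these limits in Rh30. KDM3A itself fell from 33.5 ± 2.50 to 12.2 ± 1.09 FPKM (SD, n = 3) in RD (log2 fold change -1.39, SE 0.08, limma adjusted p = 5.00e-05) and from 29.7 ± 2.14 to 14.1 ± 1.15 FPKM (SD, n = 3) in Rh30 (log2 fold change -1.02, SE 0.08, limma adjusted p = 0.000348). Of 10 markers of the skeletal muscle lineage, 8 had a mean of at least 1 FPKM in RD and 7 in Rh30. Whether replicate libraries stem from independent cultures is not stated in the sources, and the p-values then measure only the spread between these libraries, which may be technical. In the labels, the Rh30 Scramble libraries all end in the same number, while those of each other group are numbered in turn. What that number stands for is not stated. An exact permutation test of 3 against 3 libraries cannot give a p below 0.1.

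In RD cells, KDM3A-sh2 was accompanied by higher TNC and LUM and by slightly lower VCAN and BGN. In Rh30 cells LUM was higher and GPC3 lower, both by small amounts, and the 3 genes chosen by their Rh30 values moved by 0.462-fold (VCAN), 0.731-fold (TNC) and 3.51-fold (MGP). A gene was tested when its mean over the libraries of a comparison was at least 1 FPKM, and it was called when the adjusted p of the limma fit over all tested genes was below 0.05. Of the 10 genes, 7 passed that filter in RD, of which 2 were called higher, 2 lower and 3 in neither direction, while HAPLN1, FMOD and MGP lay below it. Of all 17988 genes tested in RD, 21.6% were called higher and 19.5% lower, so calls were frequent in this comparison. In Rh30, 6 genes passed the filter, and of the 3 that could be tested 1 was called higher, 1 lower and FMOD in neither direction, with HAPLN1, ACAN, BGN and DCN below the filter. Across all 17803 genes tested in Rh30, 15.3% were called higher and 13.2% lower. The libraries of the KDM3A-sh2 and Scramble groups did not overlap for 4 of the 7 genes in RD, where this held for 53.4% of all genes tested, and for 6 of the 6 in Rh30 (45.8% of all genes), 3 of which were chosen for that change. In bulk RNA, fewer cells of a type and less RNA per cell cannot be told apart.

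**Figure D1:**
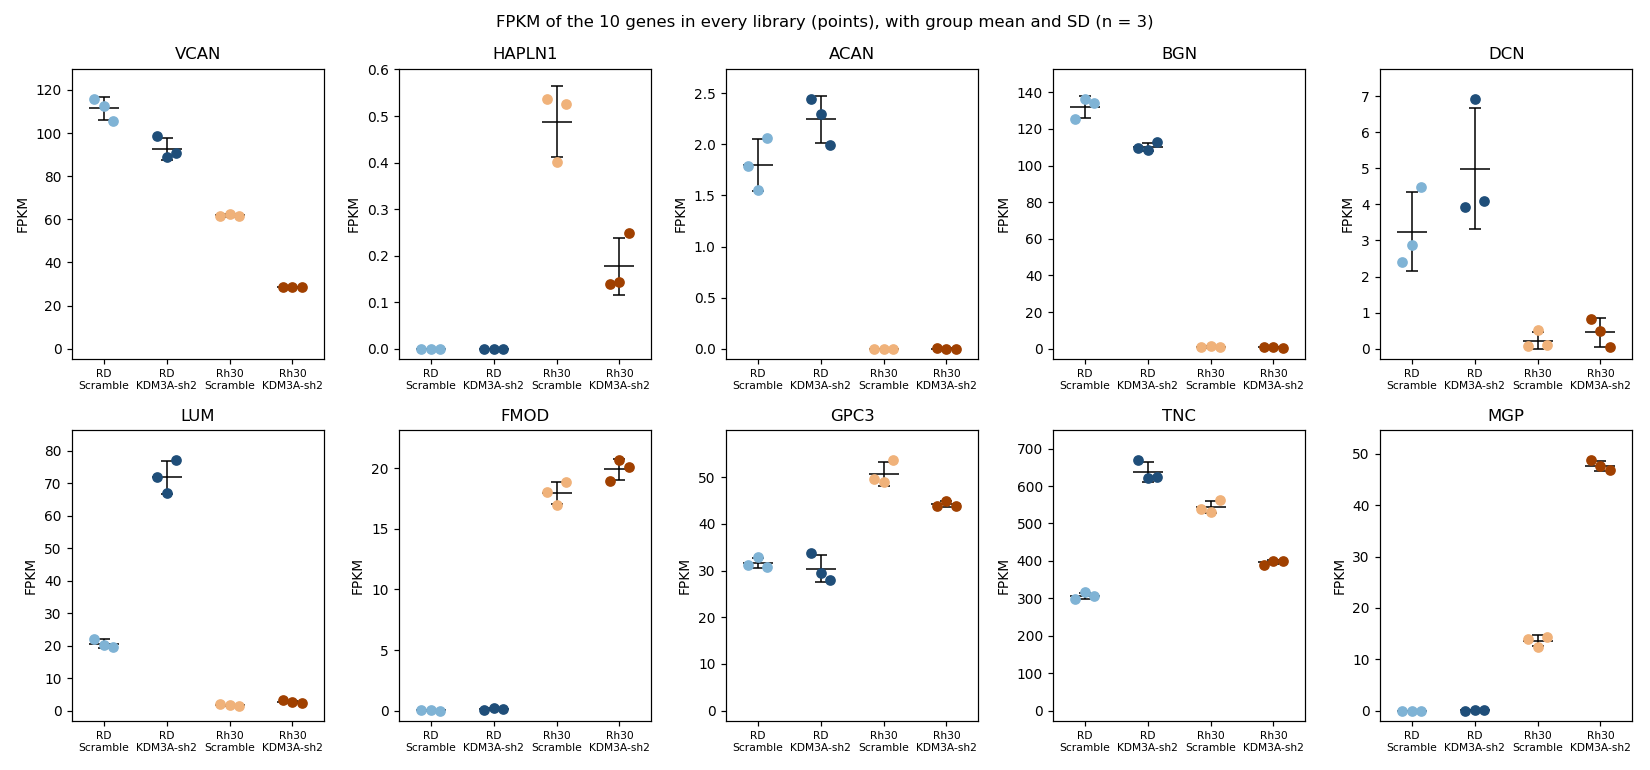
FPKM (vertical axes, 1 scale per gene, all starting just below 0) of the 10 genes in every library of RD Scramble, RD KDM3A-sh2, Rh30 Scramble and Rh30 KDM3A-sh2. Points are libraries, the horizontal bar is the group mean and the vertical bar the SD (n = 3). TNC is highest in RD KDM3A-sh2 and lowest in RD Scramble, VCAN falls in steps over the 4 groups, and BGN, LUM and ACAN are present mainly in RD while FMOD and MGP are present mainly in Rh30.

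VCAN encodes versican, the large chondroitin sulfate proteoglycan of loose connective tissue (ENSG00000038427, GRCh38 chr5:83471465-83582303, plus strand). In RD Scramble its level was 116.0, 112.6 and 105.6 FPKM in replicates 1 to 3, and in RD KDM3A-sh2 it was 98.6, 88.9 and 90.7 FPKM. Every knockdown library of RD was below every Scramble library. The means of 111.4 ± 5.27 and 92.7 ± 5.17 FPKM (SD, n = 3) differ by a log2 fold change of -0.26 (SE 0.05, 95% interval -0.39 to -0.13, limma adjusted p = 0.0085), a ratio of 0.833. In Rh30 Scramble the 3 libraries had 61.5, 62.4 and 61.5 FPKM, and in Rh30 KDM3A-sh2 they had 28.5, 28.7 and 28.4 FPKM. These are the values that chose the gene: the Rh30 groups lay far apart compared with their spread (61.8 ± 0.529 and 28.5 ± 0.118 FPKM, SD, n = 3), with a log2 fold change of -1.09. The fitted change in Rh30 minus that in RD was -0.83 on the log2 scale, given without a test. The order of the levels was RD Scramble, RD KDM3A-sh2, Rh30 Scramble and Rh30 KDM3A-sh2, with no overlap between neighbours.

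HAPLN1 encodes the link protein that locks versican and aggrecan onto hyaluronan, and it is the next protein-coding gene to VCAN on chromosome 5 (ENSG00000145681, chr5:83637805-83721613, minus strand), 55501 bases away with 0 coding genes between them. All 6 RD libraries list it at 0. The Rh30 Scramble libraries had 0.537, 0.400 and 0.526 FPKM and the Rh30 KDM3A-sh2 libraries 0.140, 0.144 and 0.248 FPKM, so the Rh30 groups did not overlap, at means of 0.488 ± 0.0761 and 0.177 ± 0.0613 FPKM (SD, n = 3). These levels are below the filter of 1 FPKM. With no filter, the log2 fold change of FPKM + 1 in Rh30 was -0.34 (SE 0.06, limma adjusted p = 0.0262), on a scale that compresses changes of low genes. ACAN encodes aggrecan, the load-bearing proteoglycan of cartilage (ENSG00000157766, chr15:88803442-88875354, plus strand). Its RD levels were 1.78, 1.56 and 2.07 FPKM with Scramble and 2.45, 2.29 and 1.99 FPKM with KDM3A-sh2, which overlap. The change in ACAN in RD did not pass the test (log2 fold change 0.21, 95% interval -0.09 to 0.51, limma adjusted p = 0.225). In Rh30, ACAN is listed at 0 in 5 libraries and at 0.00635 FPKM in KDM3A-sh2 replicate 1. Of 14 cartilage markers, 8 had at least 1 FPKM in each group, and their summed level ran from 117.5 to 125.7 FPKM in RD Scramble, 96.6 to 103.0 in RD KDM3A-sh2, 238.7 to 262.0 in Rh30 Scramble and 155.6 to 167.7 in Rh30 KDM3A-sh2. The lower sum with KDM3A-sh2 in both lines came from COL2A1, the main collagen of cartilage, which had means of 40.5 and 8.75 FPKM in RD and 175.9 and 85.7 FPKM in Rh30. The list as a whole did not fall: of the 8 markers tested in each line 2 were called higher, 2 lower and 4 in neither direction, with median log2 fold changes of 0.12 in RD and 0.14 in Rh30. Among all genes tested, 21.6% were called higher and 19.5% lower in RD, and 15.3% and 13.2% in Rh30. LECT1 was listed at 0 in RD and CHAD at 0 in Rh30, and the part of these markers in the proteoglycan values was not tested.

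BGN encodes biglycan, a small chondroitin sulfate proteoglycan that binds collagen fibrils and growth factors (ENSG00000182492, chrX:153494939-153509554, plus strand). With Scramble, RD libraries had 125.3, 136.5 and 134.2 FPKM, and with KDM3A-sh2 they had 109.3, 108.5 and 112.8 FPKM. The RD groups did not overlap, and BGN fell by 0.26 on the log2 scale (SE 0.04, limma adjusted p = 0.00323, ratio 0.835). Rh30 cells had 0.850, 1.33 and 0.734 FPKM with Scramble and 1.03, 0.772 and 0.689 FPKM with KDM3A-sh2, overlapping groups with a mean below the filter. BGN thus separated the lines more than the knockdown: between the Scramble groups it was 132.0 ± 5.90 FPKM in RD and 0.971 ± 0.316 FPKM in Rh30 (SD, n = 3; log2 difference, Rh30 minus RD, -6.09, SE 0.12, limma adjusted p = 3.09e-08). BGN passed the filter in that comparison through RD, so a difference between the lines was largely set by the filter.

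DCN encodes decorin, which coats collagen fibrils (ENSG00000011465, chr12:91140484-91183123, minus strand). Its level in RD was 2.40, 2.87 and 4.47 FPKM with Scramble and 3.94, 6.93 and 4.10 FPKM with KDM3A-sh2. The RD groups overlap and the change did not pass the test (log2 fold change 0.49, 95% interval -0.09 to 1.07, limma adjusted p = 0.152), an interval that holds changes of over 1 log2 unit. In Rh30 it was 0.0777, 0.510 and 0.0948 FPKM with Scramble and 0.834, 0.488 and 0.0400 FPKM with KDM3A-sh2, with a spread within groups as large as the means. DCN was lower in Rh30 Scramble than in RD Scramble (log2 difference -1.78, limma adjusted p = 0.000276). It passed the filter there through RD, so that outcome was largely set by the filter.

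LUM encodes lumican, a keratan sulfate proteoglycan that keeps collagen fibrils thin (ENSG00000139329, chr12:91102629-91111831, minus strand), and lies next to DCN at a distance of 28652 bases with 0 coding genes between. RD Scramble libraries had 22.2, 20.2 and 19.6 FPKM, and RD KDM3A-sh2 libraries had 71.8, 66.9 and 77.0 FPKM. Every knockdown library of RD was far above every Scramble library. LUM rose from 20.7 ± 1.33 to 71.9 ± 5.06 FPKM (SD, n = 3), a ratio of 3.48 (log2 fold change 1.75, SE 0.07, 95% interval 1.59 to 1.91, limma adjusted p = 1.46e-05). In Rh30 the level was low, at 1.91, 1.61 and 1.56 FPKM with Scramble and 3.15, 2.64 and 2.50 FPKM with KDM3A-sh2. The Rh30 groups did not overlap, with a ratio of 1.63 (log2 fold change 0.48, SE 0.13, 95% interval 0.18 to 0.78, limma adjusted p = 0.0306). That call in Rh30 was lost with Scramble replicate 2 or 3 left out (adjusted p = 0.0774 each), with KDM3A-sh2 replicate 1, 2 or 3 left out (0.101, 0.0719 and 0.0506), with no filter on low values (0.0591) and with a replicate block (0.0585). The change differed between the lines, being smaller in Rh30 (log2 difference of the changes, Rh30 minus RD, -1.27, SE 0.12, 95% interval -1.54 to -1.003, limma adjusted p = 3.14e-05). Adding 1 to FPKM shrinks the change more at the low Rh30 level, which enlarges this difference. The ratios without it, 3.48 in RD and 1.63 in Rh30, differ in the same direction.

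FMOD encodes fibromodulin, the close relative of lumican that shares its collagen-binding role (ENSG00000122176, chr1:203340628-203351758, minus strand). The RD libraries had between 0.0154 and 0.198 FPKM, below the filter. Rh30 Scramble libraries had 18.1, 16.95 and 18.8 FPKM and Rh30 KDM3A-sh2 libraries 18.9, 20.6 and 20.1 FPKM. The groups did not overlap, but the difference did not pass the test (17.9 ± 0.944 and 19.9 ± 0.860 FPKM, SD, n = 3; log2 fold change 0.14, SE 0.06, 95% interval -0.0042 to 0.29, limma adjusted p = 0.130). FMOD was higher in Rh30 Scramble than in RD Scramble (limma adjusted p = 4.11e-08). It passed the filter there through Rh30, so that outcome was largely set by the filter. No fold is given, since RD is near 0. Of these small leucine-rich proteoglycans, BGN, DCN and LUM had higher FPKM in RD Scramble and FMOD in Rh30 Scramble. Only LUM had a mean of at least 1 FPKM in both Scramble groups.

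GPC3 encodes glypican 3, a membrane-anchored heparan sulfate proteoglycan of embryonic tissue that binds Hedgehog and Wnt ligands (ENSG00000147257, chrX:133535745-133985895, minus strand). It was present in all groups. RD libraries had 31.2, 32.8 and 30.8 FPKM with Scramble and 33.6, 29.6 and 28.0 FPKM with KDM3A-sh2, which overlap (log2 fold change -0.06, 95% interval -0.23 to 0.11, limma adjusted p = 0.559). Rh30 libraries had 49.6, 48.9 and 53.6 FPKM with Scramble and 43.9, 44.9 and 43.9 FPKM with KDM3A-sh2. In Rh30 GPC3 fell by 0.19 on the log2 scale (SE 0.05, 95% interval -0.31 to -0.08, limma adjusted p = 0.0258), to 0.872 of the Scramble level. That call was lost with Scramble replicate 1 left out (adjusted p = 0.0549), with KDM3A-sh2 replicate 1, 2 or 3 left out (0.0807, 0.0622 and 0.0716), with a separate fit for each gene on unlogged FPKM (0.0559) and with a replicate block (0.0728). The test of the difference between the lines did not pass (Rh30 minus RD -0.13, 95% interval -0.33 to 0.06, limma adjusted p = 0.302). GPC3 was higher in Rh30 Scramble than in RD Scramble by a ratio of 1.60 (log2 difference 0.66, SE 0.05, limma adjusted p = 2.53e-05).

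TNC encodes tenascin C and had the highest FPKM of the 10 genes in all 12 libraries (ENSG00000041982, chr9:115019578-115118257, minus strand). Its level in RD Scramble was 298.8, 315.7 and 306.2 FPKM, and in RD KDM3A-sh2 it was 668.2, 621.2 and 624.9 FPKM. The RD groups lay far apart, with the knockdown libraries higher. TNC rose in RD from 306.9 ± 8.49 to 638.1 ± 26.1 FPKM (SD, n = 3), a ratio of 2.08 (log2 fold change 1.05, SE 0.04, 95% interval 0.96 to 1.15, limma adjusted p = 1.24e-05). In Rh30, where TNC was selected for its change, the libraries had 539.6, 529.9 and 561.8 FPKM with Scramble and 390.2, 400.9 and 400.7 FPKM with KDM3A-sh2. The Rh30 knockdown libraries were all below the Rh30 Scramble libraries, at 397.3 ± 6.13 against 543.8 ± 16.3 FPKM (SD, n = 3; ratio 0.731, log2 fold change -0.45). The groups thus moved in opposite directions in the lines, with a difference of -1.50 on the log2 scale that was not tested because the Rh30 values chose the gene. The order of the levels was RD KDM3A-sh2, Rh30 Scramble, Rh30 KDM3A-sh2 and RD Scramble, with no overlap between neighbours. Among all genes in a library, TNC ranked 603 to 634 in RD Scramble, 215 to 245 in RD KDM3A-sh2, 327 to 345 in Rh30 Scramble and 451 to 475 in Rh30 KDM3A-sh2, counted from the highest FPKM.

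The 10 markers of fibroblasts and tendon, cells in which lumican and tenascin C are usually found, summed to 3262 to 3383 FPKM in RD Scramble and 3985 to 4099 FPKM in RD KDM3A-sh2. They summed to 56.8 to 64.8 FPKM in Rh30 Scramble and 68.0 to 74.8 FPKM in Rh30 KDM3A-sh2. The sum was thus higher with KDM3A-sh2 in both lines, and in RD it exceeded that of the 10 muscle markers (2821 to 3098 FPKM with Scramble and 3215 to 3347 with KDM3A-sh2). Most of it in RD was COL3A1, with means of 2889 and 3385 FPKM, against 24.3 and 41.8 FPKM in Rh30. Of the 7 markers tested in each line, 5 were called higher and 1 lower in RD, and 2 higher and 2 lower in Rh30. The shares over all genes tested were 21.6% higher and 19.5% lower in RD, and 15.3% and 13.2% in Rh30. The tendon marker TNMD was at 0 in every library, and the part of these markers in the LUM and TNC values was not tested.

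Sequences around the RefSeq starts of TNC and VCAN are printed. These genes had the largest log2 fold change in RD and Rh30, respectively, among the genes with a promoter in the RefSeq table used here. The table (GRCh38.p14) holds 35116 promoters and 6 of the 10 genes, each with 250 bases before to 50 bases after the start. The TNC promoter is chr9:115118108-115118407 on the minus strand and that of VCAN is chr5:83471494-83471793 on the plus strand, both written 5′ to 3′ in the direction of the gene. The RefSeq starts differ from the GENCODE gene starts given with each gene. GENCODE begins VCAN at chr5:83471465, so the whole VCAN sequence lies inside that gene annotation. Capitals mark matches, on either strand, to 4 motifs. The first is TATANA, the letters of a TATA box, and the second is TGANTCA, a site of AP-1 factors such as FOS and JUN. Further motifs were GGAAG, the core of sites bound by the ETS family, and the TEAD motif GGAATG, bound by partners of YAP. No matches overlapped in these promoters.
TNC: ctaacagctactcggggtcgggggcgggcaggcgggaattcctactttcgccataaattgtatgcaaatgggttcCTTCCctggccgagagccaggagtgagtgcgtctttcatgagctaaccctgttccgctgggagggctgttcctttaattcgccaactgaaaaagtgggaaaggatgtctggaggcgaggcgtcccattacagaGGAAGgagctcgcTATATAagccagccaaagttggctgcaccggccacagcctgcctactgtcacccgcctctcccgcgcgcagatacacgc
VCAN: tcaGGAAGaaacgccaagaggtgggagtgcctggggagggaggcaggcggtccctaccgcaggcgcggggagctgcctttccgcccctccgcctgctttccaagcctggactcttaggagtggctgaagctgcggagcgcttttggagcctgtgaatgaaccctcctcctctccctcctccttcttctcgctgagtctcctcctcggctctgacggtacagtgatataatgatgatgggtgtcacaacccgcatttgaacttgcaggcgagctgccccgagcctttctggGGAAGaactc
The TNC promoter has 1 TATANA match, which begins 29 bases before the start (position -29), and VCAN has 0. That motif was found in 19.0% of all promoters in the table, and its letters were chosen after the sequences were seen. Both promoters have 2 matches to GGAAG, which 71.9% of all promoters hold, and neither holds TGANTCA (7.71% of all promoters) or the TEAD motif (14% of all). GC content was 57.3% in the TNC promoter and 60.3% in that of VCAN, against a median of 58.7% over all promoters. FMOD also had 1 TATANA match, at position -177, and of the 6 promoters 0 held the AP-1 motif and 0 the TEAD motif. A match is a string of letters and says nothing of whether a factor bound there.

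MGP encodes matrix Gla protein, a secreted inhibitor of calcification and of bone morphogenetic protein signaling (ENSG00000111341, chr12:14881181-14885926, minus strand). In RD it is listed at 0 in the Scramble libraries and in KDM3A-sh2 replicate 1, and at 0.104 and 0.117 FPKM in KDM3A-sh2 replicates 2 and 3, below the filter. Rh30 Scramble libraries had 14.03, 12.4 and 14.4 FPKM, and Rh30 KDM3A-sh2 libraries had 48.7, 47.7 and 46.8 FPKM. These values chose the gene, and the groups lay far apart: 13.6 ± 1.09 and 47.7 ± 0.963 FPKM (SD, n = 3), a ratio of 3.51 and a log2 fold change of 1.74. The difference between the lines in the fitted change was 1.64 on the log2 scale, given without a test.

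**Figure D2:**
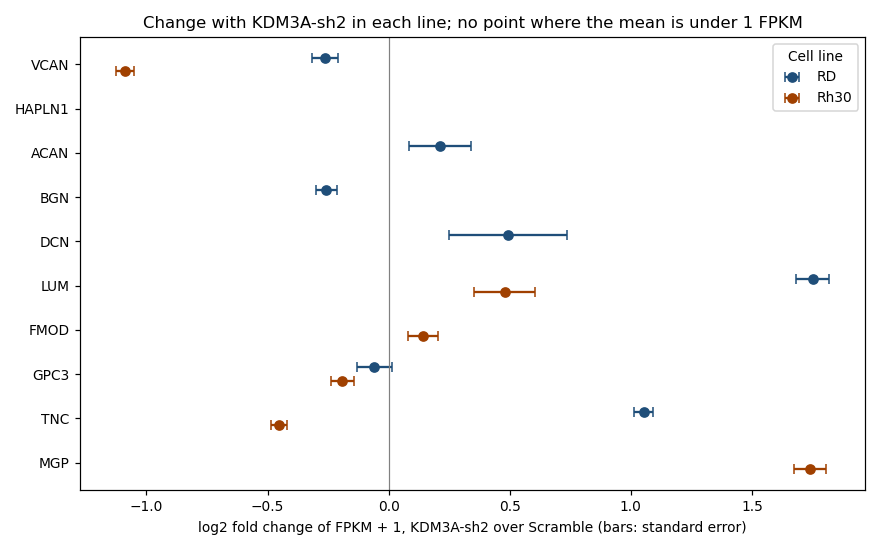
Change with KDM3A-sh2 in each line (horizontal axis, log2 fold change of FPKM + 1, KDM3A-sh2 over Scramble; bars are standard errors) for the 10 genes; genes below the filter of 1 FPKM in a line have no point there. TNC is the gene with points on opposite sides of 0 far beyond their bars (1.05 in RD, -0.45 in Rh30), LUM lies above 0 in both lines and VCAN below 0 in both.

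The difference between the lines in the knockdown effect could be fitted for 9 of the 10 genes and tested for 6, of which 1, LUM, was called and 5 were not. Of all 18517 genes tested for this difference, 27.8% were called. The 5 genes not called were GPC3 (above), ACAN (Rh30 minus RD -0.21, 95% interval -0.54 to 0.12, adjusted p = 0.336), BGN (0.16, interval -0.17 to 0.48, adjusted p = 0.467), DCN (-0.27, interval -1.10 to 0.56, adjusted p = 0.644) and FMOD (0.04, interval -0.21 to 0.30, adjusted p = 0.811). ACAN, BGN and DCN entered this fit through their RD levels, and FMOD through Rh30, so their change in the other line is one between values near 0. Between the Scramble groups, 8 genes could be fitted and all 5 that could be tested were called, GPC3 and FMOD higher in Rh30 and BGN, DCN and LUM lower in Rh30. BGN and DCN passed the filter through RD and FMOD through Rh30, so a difference between the lines was largely set by the filter for these 3. Calls were the rule in that comparison, with 35.0% of 18357 genes higher in Rh30 and 39.6% lower. LUM was 20.7 FPKM in RD and 1.69 FPKM in Rh30 with Scramble (log2 difference -3.01, SE 0.09, limma adjusted p = 1.82e-07). For the genes chosen on Rh30 the differences were -0.84 (VCAN) and 0.82 (TNC) on the log2 scale, given without a test, and MGP is listed at 0 in RD Scramble.

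Summed over the 10 genes, expression was 607.7 ± 12.9 FPKM in RD Scramble, 950.8 ± 33.1 in RD KDM3A-sh2, 691.2 ± 19.8 in Rh30 Scramble and 541.8 ± 5.83 in Rh30 KDM3A-sh2 (SD, n = 3). TNC made up most of each sum, at a mean of 50.5%, 67.1%, 78.7% and 73.3% in that order. VCAN contributed 18.3% in RD Scramble and 9.75% in RD KDM3A-sh2, and 8.95% in Rh30 Scramble and 5.27% in Rh30 KDM3A-sh2. BGN contributed 21.7% in RD Scramble, 11.6% in RD KDM3A-sh2 and under 0.2% in Rh30. The share of LUM in RD was 3.40% with Scramble and 7.57% with KDM3A-sh2, and that of MGP in Rh30 was 1.97% and 8.81%. GPC3 held 5.20% and 3.19% in RD and 7.33% and 8.16% in Rh30, a share that was higher with KDM3A-sh2 in Rh30 although its FPKM was lower.

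**Figure D3:**
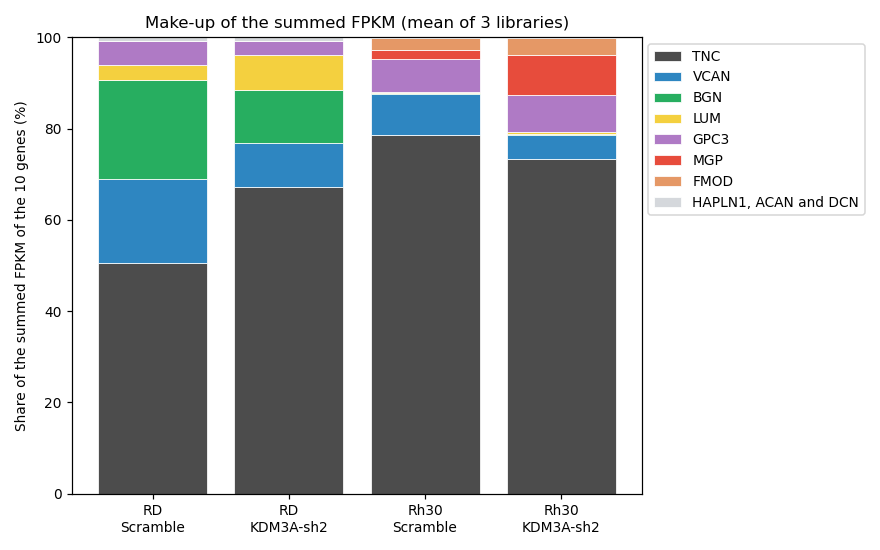
Make-up of the summed FPKM of the 10 genes (vertical axis, percent of the sum, mean of 3 libraries) in the 4 groups; each color is a gene, with HAPLN1, ACAN and DCN joined. TNC fills between 50.5% and 78.7% of every bar, BGN is visible in RD only and MGP and FMOD in Rh30 only.

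For the 3 genes chosen on Rh30, the genes with the most similar profile over the 12 libraries were looked up by Pearson's r of log2(FPKM + 1) among the 11017 genes whose mean reached 10 FPKM. The libraries fall into 4 groups, so r mostly ranks the pattern of 4 means, and no p is given. For VCAN they were SCRN1 (r = 0.997), NNMT (0.996), which encodes nicotinamide N-methyltransferase, and LOXL2 (0.994), which encodes a lysyl oxidase that crosslinks collagen. LOXL2 had means of 227.6, 199.0, 135.7 and 62.9 FPKM in RD Scramble, RD KDM3A-sh2, Rh30 Scramble and Rh30 KDM3A-sh2, in the order of VCAN. For TNC they were GDF15 (r = 0.983), which encodes a secreted stress-induced factor, ICMT (0.969) and BBS10 (0.954). GDF15 had means of 8.81, 41.9, 26.6 and 16.3 FPKM in the same groups, highest in RD KDM3A-sh2 and lowest in RD Scramble like TNC. For MGP they were THOC2 (r = 0.998), RP11-384O8.1 (0.997) and AAR2 (0.997), with THOC2 at 67.8, 68.8, 126.3 and 158.7 FPKM.

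The genes that build, modify and cut these proteoglycans were followed in 8 lists. Of all genes tested, 21.6% were called higher and 19.5% lower in RD, and 15.3% and 13.2% in Rh30. These shares stand beside the counts of every list below, and no list was tested against them. Of 46 genes of glycosaminoglycan chain synthesis, 38 were tested in RD, of which 21 were called higher, 4 lower and 13 in neither direction, and 40 in Rh30, of which 3 were called higher, 9 lower and 28 in neither direction. Their median log2 fold change was 0.26 in RD and -0.07 in Rh30, where the medians of all genes were 0.0067 and 0.031. DSEL, an epimerase-like protein of dermatan sulfate, rose in RD from 10.8 to 19.9 FPKM (log2 fold change 0.82, limma adjusted p = 0.000194) and in Rh30 from 10.3 to 14.7 FPKM (0.48, adjusted p = 0.00192), the higher of 2 identifiers with that name being used. HS6ST1, a heparan sulfate sulfotransferase, fell in RD from 22.1 to 16.6 FPKM (-0.39, adjusted p = 0.000845), and CHST3, a chondroitin sulfotransferase, fell in Rh30 from 10.9 to 6.77 FPKM (-0.62, adjusted p = 0.00108).

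Of 29 other tenascins, matricellular and matrix binding proteins, 20 were tested in RD, with 11 called higher, 3 lower and 6 in neither direction (median 0.37), and 13 in Rh30, with 2 higher, 5 lower and 6 in neither direction (median -0.25). FN1, fibronectin, to which tenascin C binds, rose in RD from 1539 to 2958 FPKM (log2 fold change 0.94, limma adjusted p = 1.24e-05). NID1, a nidogen of basement membranes, fell in RD from 73.6 to 43.3 FPKM (-0.75, adjusted p = 5.19e-05) and in Rh30 from 32.9 to 24.2 FPKM (-0.43, adjusted p = 0.00124). FBLN5, a fibulin of elastic fibers, rose in Rh30 from 51.7 to 67.7 FPKM (0.38, adjusted p = 0.00159) and in RD from 13.8 to 23.0 FPKM (0.70, adjusted p = 0.000105). ECM1 fell in Rh30 from 17.6 to 8.30 FPKM (-1.01, adjusted p = 0.000533) and had 215 and 219 FPKM in RD (0.03, adjusted p = 0.563). FN1 in Rh30 had 195.6 and 212.2 FPKM and did not pass the test (0.12, adjusted p = 0.0793).

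Of 15 other heparan sulfate proteoglycans and their extracellular modifiers, 14 were tested in RD (6 higher, 4 lower, 4 not called, median 0.11) and 14 in Rh30 (3 higher, 5 lower, 6 not called, median -0.11). SULF1, a sulfatase that trims heparan sulfate outside the cell, rose in RD from 98.8 to 170.9 FPKM (log2 fold change 0.78, limma adjusted p = 4.96e-05) and in Rh30 from 72.2 to 95.1 FPKM (0.39, adjusted p = 0.00114). The related SULF2 rose in Rh30 from 160.7 to 272.5 FPKM (0.76, adjusted p = 0.000122) and had 18.1 and 15.4 FPKM in RD (-0.23, adjusted p = 0.233). SDC1, a syndecan, fell in RD from 73.8 to 51.7 FPKM (-0.50, adjusted p = 0.000469), and GPC4, a glypican like GPC3, fell in Rh30 from 27.8 to 13.1 FPKM (-1.03, adjusted p = 8.21e-05). GPC4 rose in RD from 11.4 to 14.9 FPKM (0.36, adjusted p = 0.00371). Of 17 other lecticans, link proteins and chondroitin sulfate proteoglycans, 8 were tested in RD (3 higher, 0 lower, 5 not called, median -0.03) and 6 in Rh30 (1 higher, 0 lower, 5 not called, median -0.17). SPOCK3, a testican, rose in both lines, from 4.61 to 8.05 FPKM in RD (0.68, adjusted p = 0.00798) and from 41.4 to 49.9 FPKM in Rh30 (0.26, adjusted p = 0.00948).

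Of 13 other small leucine-rich proteoglycans, 2 were tested in each line, where 2 were called higher in RD (median 0.62) and 1 lower and 1 in neither direction in Rh30 (median -0.19). PODNL1, a podocan-like protein, rose in RD from 3.61 to 8.14 FPKM (log2 fold change 0.99, limma adjusted p = 0.000674). Of 18 genes of hyaluronan synthesis, receptors and turnover, 8 were tested in RD (4 higher, 1 lower, 3 not called, median 0.30) and 7 in Rh30 (0 higher, 1 lower, 6 not called, median 0.07). TMEM2, a cell-surface protein of hyaluronan breakdown, rose in RD from 55.7 to 83.7 FPKM (0.58, adjusted p = 0.000128) and fell in Rh30 from 91.0 to 41.5 FPKM (-1.12, adjusted p = 0.000221). HMMR, a hyaluronan receptor of dividing cells, fell in RD from 22.02 to 15.6 FPKM (-0.47, adjusted p = 0.00577).

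Carboxylation is needed for MGP to inhibit calcification. The list drawn up for it held GGCX, VKORC1, VKORC1L1, CALU and FURIN, and all 5 genes were tested in each line. In RD, 2 were higher (FURIN and CALU), 1 lower (GGCX) and 2 not called (median -0.03). In Rh30, 1 was higher (FURIN), 1 lower (GGCX) and 3 not called (median -0.11). FURIN, which cleaves the precursors of secreted proteins, rose from 28.6 to 55.7 FPKM in RD (log2 fold change 0.94, limma adjusted p = 9.03e-05) and from 14.5 to 23.4 FPKM in Rh30 (0.65, adjusted p = 0.00355). GGCX, the carboxylase itself, fell from 102.8 to 83.1 FPKM in RD (-0.30, adjusted p = 0.00458) and from 52.5 to 38.9 FPKM in Rh30 (-0.43, adjusted p = 0.00726). Of 21 proteases that cut proteoglycans and their inhibitors, 16 were tested in RD (4 higher, 4 lower, 8 not called, median 0.07) and 13 in Rh30 (1 higher, 7 lower, 5 not called, median -0.26). BMP1, which matures biglycan and procollagen, rose in RD from 39.8 to 57.3 FPKM (0.51, adjusted p = 0.000247). ADAMTS1, which cleaves versican, fell in RD from 156.8 to 103.5 FPKM (-0.60, adjusted p = 0.000373), and in Rh30 from 301.9 to 189.6 FPKM (-0.67, adjusted p = 0.00019). The related ADAMTS15 fell in Rh30 from 8.61 to 4.54 FPKM (-0.80, adjusted p = 0.000573) and had 5.14 and 5.34 FPKM in RD (0.05, adjusted p = 0.689).

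**Figure D4:**
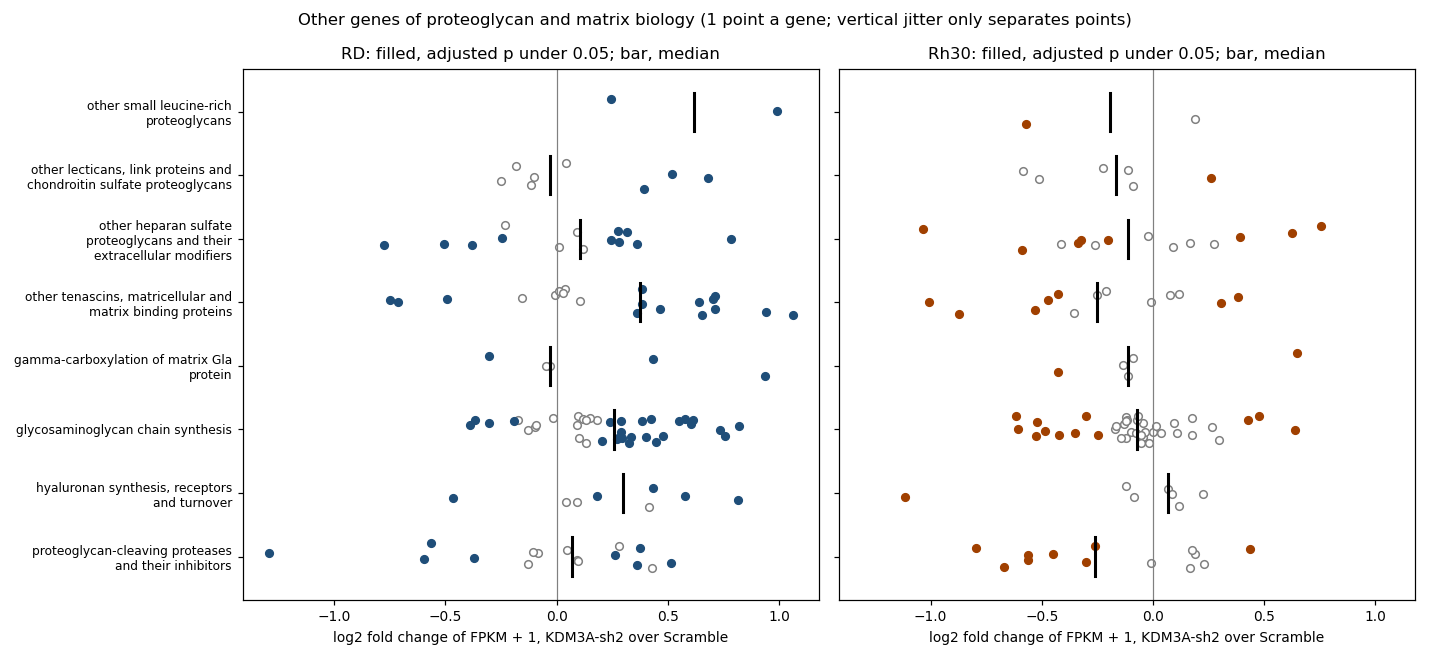
Change with KDM3A-sh2 (horizontal axes, log2 fold change of FPKM + 1) of the tested genes of 8 lists in RD (left) and Rh30 (right); each point is a gene, filled where the adjusted p was below 0.05, the bar is the list's median, and vertical jitter only separates points. For glycosaminoglycan chain synthesis the median is 0.26 in RD and -0.07 in Rh30, and for tenascins and matricellular proteins it is 0.37 and -0.25.

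VCAN and HAPLN1, neighbours on chromosome 5 that were both lower with KDM3A-sh2 in Rh30 (HAPLN1 below the filter), also share a 7-base word, TGAAGCA, in their longest annotated 3′ UTR. The word was taken up with earlier results of these data known, and its sites are shown in capitals with 10 bases on each side, 5′ to 3′ on the strand of the gene.
VCAN site: gctgcagctgTGAAGCAtacataaata
HAPLN1 site A: cccatttataTGAAGCAtgacacataa
HAPLN1 site B: aaatttctatTGAAGCAaacatctaat
The word of the VCAN site lies at chr5:83581414-83581420, and those of HAPLN1 at chr5:83640840-83640846 and chr5:83639461-83639467 (GRCh38). It occurs in 5 of the 10 genes (VCAN, HAPLN1, ACAN, DCN and FMOD) and in none of BGN, LUM, GPC3, TNC and MGP. Among genes tested with a 3′ UTR of at least 50 bases it occurs in 16.7% of 12407 in RD and in 16.9% of 11881 in Rh30. The share was 22.5% among genes called lower and 12.2% among genes called higher in RD, and 29.3% and 11.1% in Rh30. A longer 3′ UTR has more positions for a word, and none of these shares was matched for length. The longest 3′ UTRs had 1650 to 5574 bases in the 5 genes with the word and 379 to 1579 bases in those without it. Of the genes with the word, VCAN was lower in both lines, while ACAN and DCN in RD and FMOD in Rh30 were not called. Whether the word had a part in any of these values was not tested.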

How the data were processed

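RNA with poly(A) from 12 libraries was sequenced on a HiSeq4000 after a directional library preparation. Per the labels and the study's methods, the authors used GSNAP with the GRCh38 build for alignment, SAMtools for the alignment files and Cufflinks for the FPKM. The annotation release is not given in the sources used here. The deposited values are FPKM per gene identifier and library, not counts, so no count model was run, and all columns were matched to samples through their labels (0 columns unused). Of 66095 entries, 120 repeats of 117 identifiers were left out, keeping the entry with the higher mean, and the value 999999999 was read as missing (17 genes, left out of the fits they touch).

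The 10 genes and all gene lists were chosen with earlier results of these data known. Genes whose mean over the libraries of a fit reached 1 FPKM were tested on log2(FPKM + 1) with limma 3.58.1 (R 4.3.3, lmFit and eBayes with trend, two-sided, Benjamini-Hochberg over all genes tested, threshold 0.05). A fold change on this scale understates changes of low genes. The study named ANOVA on FPKM as its test. A separate fit for each gene on unlogged FPKM, called ANOVA here, was run as an alternative with the filter and adjustment used here. It does not repeat the study's pipeline. The within-line fits used 6 libraries, the difference between the lines used all 12 in a fit with an interaction term, and the comparison of lines used the 6 Scramble libraries. The code was tested on simulated data. Exact permutation tests were two-sided over 3 against 3 libraries. From each list, in each line and direction, the called gene with the largest change among those whose mean reached 5 FPKM and whose groups did not overlap was named. FN1, NID1, SULF1 and ADAMTS1 in Rh30 are given beside the same genes in RD. FBLN5, ECM1, GPC4, SULF2 and ADAMTS15 in RD are given beside the same genes in Rh30. These additions were chosen after their values were seen. HS6ST1, SDC1, HMMR and BMP1, named for RD, were not called in Rh30, and CHST3, named for Rh30, was not called in RD. Cell type markers were listed for skeletal muscle, cartilage, fibroblast and tendon, endothelium, leukocytes and epithelium. Replicates of a group correlated at 0.987 to 0.989 (log2) and none were duplicates. Gene positions and 3′ UTRs are from GENCODE 29 (GRCh38), which holds 86.3% of the identifiers. Alternatives were a pseudocount of 0.1, no filter, at least 10 FPKM in 1 library, rescaling to the same sum, ANOVA on unlogged FPKM, a replicate block and leaving out each library in turn.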

Additional observations from a re-analysis of the deposited data

Results flagged for a closer look

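The change in LUM with KDM3A-sh2 differed between the lines by the interaction term of the limma fit over 12 libraries (Rh30 minus RD -1.27 on the log2 scale, adjusted p = 3.14e-05), with LUM higher in 3 of 3 knockdown libraries than in every Scramble library in both lines. The scale of FPKM + 1 enlarges this difference, since LUM was low in Rh30.

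TNC moved in opposite directions, with every RD knockdown library above and every Rh30 knockdown library below all Scramble libraries of its line. The difference (Rh30 minus RD) was -1.50 on the log2 scale and was not tested, since the Rh30 values chose the gene.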

How the results depend on the processing

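In RD, the calls of TNC, LUM, VCAN and BGN kept their direction and their side of the threshold in all alternatives, with log2 fold changes of 1.02 to 1.07, 1.70 to 1.80, -0.31 to -0.23 and -0.29 to -0.23 when single libraries were left out. Of the other values in RD, SPOCK3 lost its call with ANOVA (adjusted p = 0.0525). In Rh30, 2 of the 10 genes were called. That number was 1 with the filter of at least 10 FPKM (LUM was not tested), 1 with ANOVA, 0 with the replicate block and 0 to 1 with single libraries left out. With no filter it was 2, GPC3 and HAPLN1. The genes called higher in Rh30 numbered 2719, 1798 with the replicate block and 1621 to 2127 with single libraries left out, the lowest without Rh30 KDM3A-sh2 replicate 1 and next to it 1759 without its replicate 2, in fits with fewer samples. For the difference between the lines, 1 of the 10 genes was called, against 2 with no filter (HAPLN1 added, at 0 in all RD libraries) and 2 with ANOVA (BGN added, 21.7 FPKM). On unlogged FPKM that BGN value restates its RD change of -21.8 FPKM, since its Rh30 means were only 0.971 and 0.830 FPKM. The sign of the difference turned for DCN (0.015) and FMOD (-0.40) with a pseudocount of 0.1, and for FMOD without RD KDM3A-sh2 replicate 1 (-0.017, the lowest of -0.017 to 0.102 with single libraries left out), none of them called. Rescaling all libraries to the same sum changed the genes called for this difference from 2665 higher and 2486 lower to 2061 and 3020, and shifted the median of all genes between the Scramble groups by -0.10 on the log2 scale. For these changes the cause was not tested.

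Same-numbered replicates of different groups did not deviate together (correlations -0.07 to 0.07), so no pairing by number was seen in the values. Whether same-numbered samples were handled together is not stated in the labels, and these correlations cannot exclude it. The replicate block changed no call of the 10 genes in RD or between the lines. Where values lie near 0, as for HAPLN1 and MGP in RD, ACAN in Rh30 and FMOD in RD, an exact 0 can be a failed estimate, which was not tested.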

Other observations

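With no filter on low values, HAPLN1 and ACAN could also be fitted between the Scramble groups. HAPLN1 was listed at 0 in all RD libraries, so a test of its change between the lines would only restate the change in Rh30. ACAN was listed at 0 in all 3 Rh30 Scramble libraries, so it entered this fit only through RD. Its direction was fixed in advance, and the log2 difference of FPKM + 1 (Rh30 minus RD, -1.48) is a description with no p.

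Endothelial markers summed to 24.4 to 26.1 FPKM in RD Scramble, 14.1 to 17.3 in RD KDM3A-sh2, 5.96 to 7.36 in Rh30 Scramble and 5.15 to 5.97 in Rh30 KDM3A-sh2. Leukocyte markers summed to 15.7 to 17.8, 23.0 to 25.1, 0.385 to 1.01 and 1.04 to 1.46 FPKM in the same order. Epithelial markers summed to 56.2 to 62.0, 53.6 to 54.8, 12.5 to 13.7 and 11.4 to 13.8 FPKM. SOX9, a regulator of aggrecan in cartilage, was 39.3, 45.2, 60.8 and 49.7 FPKM. These values were not tested against those of the proteoglycans.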
